A study of Mus musculus with 2 samples.

Results

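Extracellular matrix is cut and remodelled by metalloproteinases, and the genes of these enzymes and of their inhibitors were compared between PDGFRa-positive stromal cells of Sox9 PreASKO mice and of Sox9 floxed mice. The members were all genes of the deposited table whose symbol names a matrix metalloproteinase (Mmp), a tissue inhibitor of metalloproteinases (Timp), a disintegrin and metalloproteinase (Adam), an Adam with thrombospondin motifs (Adamts) or an Adamts-like protein (Adamtsl). There were 68 of them among 23647 genes: 20 Mmp, 3 Timp, 21 Adam, 19 Adamts and 5 Adamtsl genes. Of these, 49 had a mean of at least 1 CPM over both libraries and are called measured. CPM is the count scaled to the library total, and 1 CPM is 37.6 counts in PreASKO and 61.8 counts in floxed. The other 19 members did not pass that minimum. Timp2, Mmp7, Mmp20 and Adam28 were not analysed here.

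Both libraries were polyadenylated RNA of cells sorted with a PDGFRa antibody from the stromal vascular fraction, the cells left after collagenase digestion and spinning, of inguinal white fat. The PreASKO library came from Sox9 PreASKO mice and the floxed library from Sox9 floxed mice, and each pooled 3 mice. Mice of both groups are labelled male, were sampled at 3 weeks and had received doxycycline on postnatal day 1. Neither the strain nor the promoter behind the Sox9 deletion is named in the sources used here. Each genotype has a single pooled library, so there is no replicate check of any difference and no test between genotypes: every interval below is a 95% interval for counting error only and compares these libraries, not the genotypes.

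Sox9 stood at 17.0 CPM in the PreASKO library and 28.6 CPM in the floxed library, and counts per gene do not resolve its deleted part. Pdgfra, the sorting marker, stood at 603 CPM in PreASKO and 716 CPM in floxed. Markers of other cells were present and shifted. All 11 macrophage markers with a row were higher in PreASKO, none was at 0, and their summed level was 2567 CPM against 1324 CPM in floxed. Of 9 endothelial markers, 8 were higher, none was at 0, and the median log2 ratio was 0.71. Their sums, 189 CPM in PreASKO and 176 CPM in floxed, were mostly Tek, the lower marker, at 147 CPM in PreASKO and 154 CPM in floxed. All 4 measured mature adipocyte markers were lower in PreASKO, and the sums over the 6 with a row were 45.1 CPM in PreASKO and 84.6 CPM in floxed, with Lep at 13 counts in PreASKO and 0 in floxed. Xist, a transcript of female cells, stood at 745 CPM in PreASKO against 3.24 CPM in floxed, although both pools are labelled male. Xist differs between the same libraries as the genotype, so any effect of the sex of the cells cannot be told apart from one of genotype. In such pooled cells, a change in the share of a cell type and a change of RNA per cell cannot be told apart either.

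As background, matrix metalloproteinases are zinc enzymes that are made as inactive proenzymes and cleave collagens, gelatin, proteoglycans and other matrix proteins. TIMPs bind and block their active sites, and Timp3 also inhibits several ADAMs and ADAMTS enzymes. ADAMs are mostly membrane proteins that release the outer parts of other membrane proteins, a step called shedding, while ADAMTS enzymes are secreted and act on proteoglycans and procollagens. In fat, collagen cleavage by the membrane-type enzyme Mmp14 is known to be needed for adipocytes to develop in the tissue, and shedding of Pref-1, the product of Dlk1, by Adam17 releases a soluble inhibitor of adipogenesis.

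Of the 49 measured members, 25 were higher and 24 lower in PreASKO. Their median log2 ratio, of CPM + 1 in PreASKO over CPM + 1 in floxed, was 0.0035, and the median over all 13684 genes measured was -0.041. At least 2-fold higher were 4 members, Mmp13, Mmp9, Mmp27 and Adamts18, where 2.11% of all genes measured were. Mmp13 and Adamts18 were under 1 CPM in floxed and passed the minimum only through PreASKO, so this number is partly set by the minimum. At least 2-fold lower were 2 members, Adamts3 and Mmp28, where 1.52% of all genes were. Past 1.5-fold, 7 members were higher and 7 lower, against 7.89% and 8.18% of all genes. The adding of 1 CPM pulls the ratios of low genes towards 0, so the plain CPM ratio is given for each gene below. Summed over all 68 members, the transcripts took 0.877% of the PreASKO library and 0.928% of the floxed library. Members with a mean of at least 20 CPM lay within 1.5-fold in 25 of 30 cases (83.3%, against 90.9% of all genes at that level), and those of 1 to under 20 CPM in 10 of 19 (52.6%, against 75.7%).

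**Figure D1:**
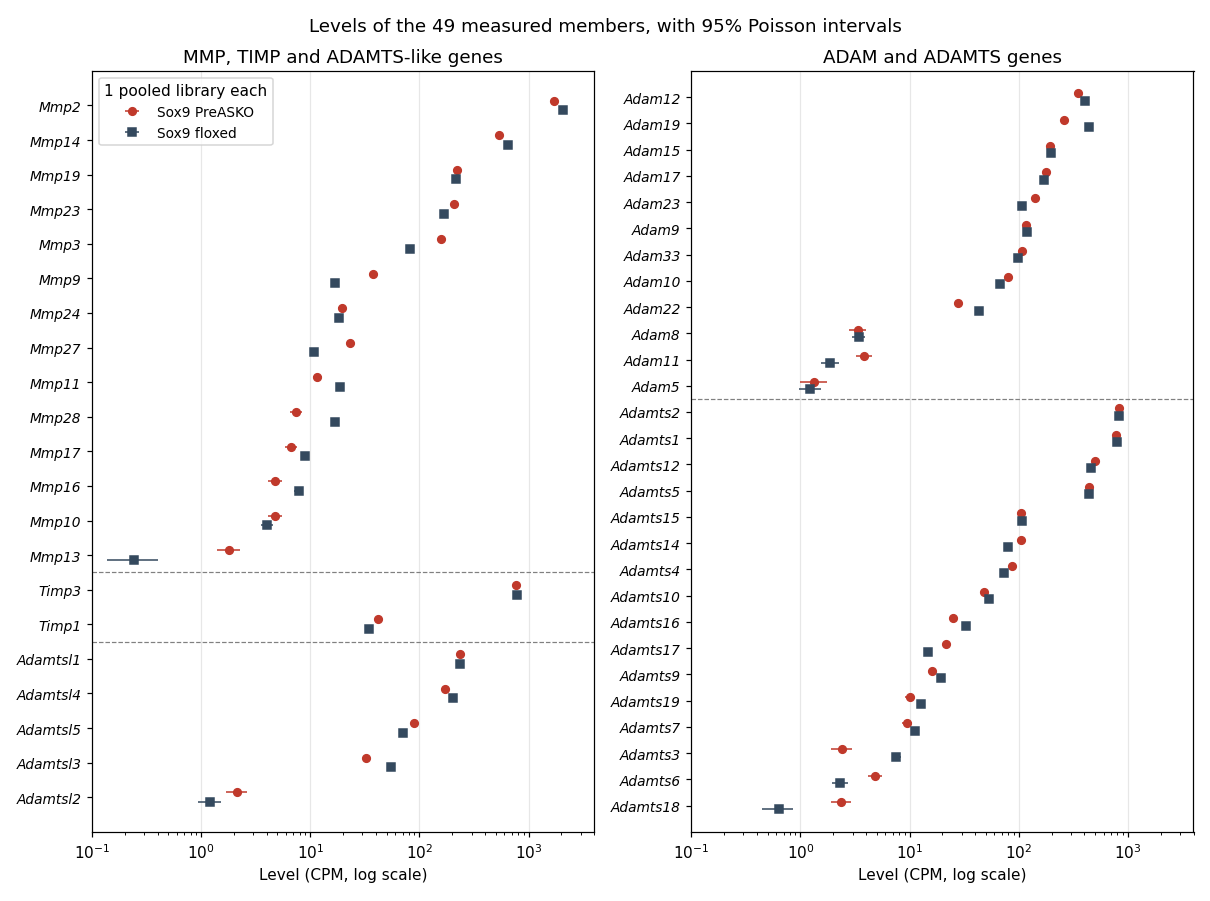
Level of each of the 49 measured members in CPM, on a log axis, in the Sox9 PreASKO library (red circles) and the Sox9 floxed library (blue-grey squares), with exact Poisson intervals that cover counting error. Mmp2 stands highest at 1725 CPM in PreASKO and 2080 CPM in floxed, and Mmp13 and Adamts18 are among the lowest members with the widest gap between libraries.

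A few genes held the top of the order of levels in both libraries. Levels of different genes are compared here as CPM per kilobase of merged exons. Mmp2 was the most abundant member in both libraries, at 560.4 CPM per kilobase in PreASKO and 676 in floxed. Timp3 (164 in PreASKO, 168 in floxed) and Adamts1 (159.9 in PreASKO, 161.9 in floxed) followed in both. The next 3 were Mmp23 (145 in PreASKO, 116 in floxed), Mmp14 (128 in PreASKO, 154 in floxed) and Adamts2 (115 in PreASKO, 114 in floxed). Mmp23 stood above Mmp14 in PreASKO and below it in floxed. Mmp3 came seventh in PreASKO at 88.2 CPM per kilobase, and stood at 45.6 in floxed, below Adam19, Adam15, Mmp19, Adamts12, Adam12 and Adamtsl4.

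Among the gelatinases, which digest denatured collagen, the abundant enzyme was slightly lower and the scarce one higher in PreASKO. Mmp2 (Entrez ID 17390; chromosome 8, 92827290 to 92853421, GRCm38, the assembly behind mm10) had 64849 counts in PreASKO and 128480 in floxed, or 1725 and 2080 CPM, a ratio of 0.829 (0.821 to 0.837). Mmp9 (ID 17395; chromosome 2, 164940326 to 164955850) had 1400 counts in PreASKO and 1036 in floxed, or 37.2 CPM against 16.8 CPM, a ratio of 2.22 (2.05 to 2.41). Mmp9 is made by macrophages and neutrophils as well as by stromal cells. The 11 macrophage markers with a row had ratios spread from 1.18 for C1qa to 2.80 for Ms4a7. Among them, Lyz2 stood at 843 CPM in PreASKO and 387 CPM in floxed, a ratio of 2.18. Csf1r stood at 307 CPM in PreASKO and 150 CPM in floxed, a ratio of 2.04. The neutrophil markers were below 1 CPM, with 1 count of S100a8 in PreASKO and 0 in floxed, Ly6g at 0.346 CPM in PreASKO and 0.259 CPM in floxed, and Mpo at 0.825 CPM in PreASKO and 0.421 CPM in floxed, a ratio of 1.96 (1.13 to 3.43). The part of these cells in the Mmp9 difference was not tested. The summed level of both gelatinases followed Mmp2, at 1762 CPM in PreASKO and 2097 CPM in floxed.

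The collagenases, which cut intact fibrillar collagen, were scarce. Mmp13, the main interstitial collagenase of mice, had 67 counts in PreASKO and 15 in floxed, or 1.78 CPM against 0.243 CPM, a ratio of 7.34 (4.15 to 13.8). It only just passed the minimum, and its log2 ratio on the CPM + 1 scale was 1.16. Mmp8, known as neutrophil collagenase, had 0 counts in PreASKO and 7 in floxed, and Mmp1a had 0 in PreASKO and 4 in floxed. A count of 0 in PreASKO allows a level of up to 3 counts, or 0.0798 CPM. The upper limits of the ratio were 1.14 for Mmp8 and 2.49 for Mmp1a, so a difference was not detectable at this depth.

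Of the stromelysins, which cleave proteoglycans, fibronectin and other matrix proteins, Mmp3 was the abundant one. Mmp3 (stromelysin 1, ID 17392; chromosome 9, 7445822 to 7455975) had 5975 counts in PreASKO and 5071 in floxed, or 159 CPM against 82.1 CPM, a ratio of 1.94 (1.86 to 2.01). Mmp10 (stromelysin 2) had 179 counts in PreASKO and 247 in floxed, a ratio of 1.19 with an interval (0.977 to 1.45) that includes 1. Mmp11 (stromelysin 3, ID 17385; chromosome 10, 75923221 to 75932502) went the opposite way, at 11.6 CPM in PreASKO and 18.6 CPM in floxed, a ratio of 0.625 (0.558 to 0.698). Mmp11 differs from the other stromelysins in being activated by furin-type convertases inside the cell.

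Of the 4 measured membrane-type MMPs, which act at the cell surface, 3 were lower in PreASKO, where 54.5% of all genes measured were. Mmp14 (ID 17387; chromosome 14, 54431598 to 54442456), the collagenase of the cell surface that also activates pro-Mmp2, stood at 534 CPM in PreASKO and 645 CPM in floxed, a ratio of 0.828 (0.814 to 0.842). Its ratio and that of Mmp2 were equal within counting error. Mmp16 stood at 4.79 CPM in PreASKO and 7.84 CPM in floxed (ratio 0.611, 0.512 to 0.726), and Mmp17 at 6.62 CPM in PreASKO and 8.89 CPM in floxed (ratio 0.745, 0.639 to 0.867). Mmp24 stood at 19.5 CPM in PreASKO and 18.2 CPM in floxed, with an interval that includes 1. The remaining 2 genes of this group, Mmp15 and Mmp25, had 12 and 7 counts in PreASKO and 47 and 4 counts in floxed, below the minimum. Mmp24 shares 637 exon bases with a gene on the opposite strand, and use of strand is not stated, so its reads could include those of the partner.

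Of the other MMPs, Mmp27 and Mmp28 lay on opposite sides. Mmp27 (ID 234911; chromosome 9, 7571396 to 7581885) had 870 counts in PreASKO and 665 in floxed, or 23.1 CPM against 10.8 CPM, a ratio of 2.15 (1.94 to 2.38). Mmp28 (epilysin, ID 118453; chromosome 11, 83440768 to 83463040) had 279 counts in PreASKO and 1046 in floxed, or 7.42 CPM against 16.9 CPM, a ratio of 0.438 (0.383 to 0.500). Mmp28 shares 466 exon bases with a gene on the opposite strand, so part of its counts is uncertain. Mmp23, a membrane-anchored protease without a hemopexin domain, stood at 208 CPM in PreASKO and 166 CPM in floxed (ratio 1.25, 1.22 to 1.29). Mmp19 stood at 223 CPM in PreASKO and 217 CPM in floxed. It shares 789 and 212 exon bases with genes on the opposite strand, so part of its counts is uncertain too. Mmp12, the macrophage elastase, had 0 counts in PreASKO and 11 in floxed, below the minimum. Macrophage markers summed higher in PreASKO, and how their level bears on Mmp12 was not tested. Mmp21 had 2 counts in PreASKO and 10 in floxed.

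**Figure D2:**
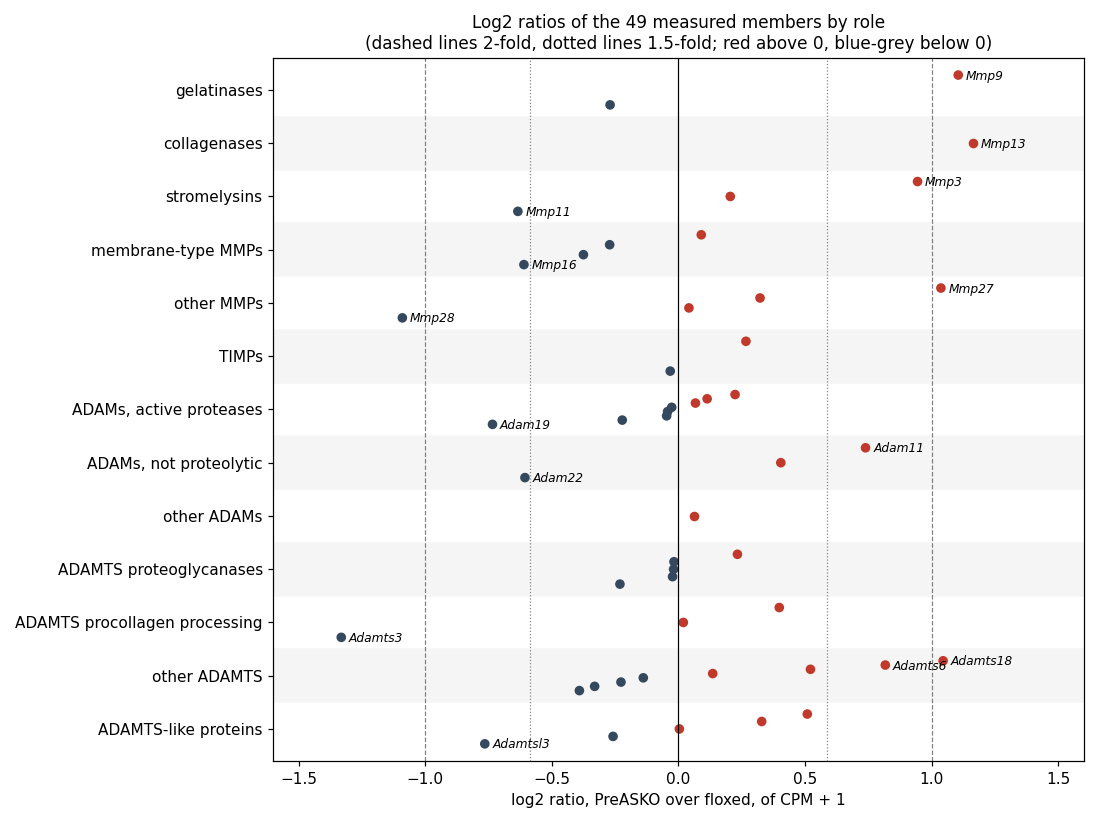
Log2 ratio of CPM + 1, PreASKO over floxed, of each of the 49 measured members, in rows by role; dashed lines mark 2-fold and dotted lines 1.5-fold, and members past 1.5-fold are named. Of 14 MMP genes 7 lie past 1.5-fold, on both sides, and 83.9% of all genes measured lie within it.

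Several MMP genes lie next to each other on chromosome 9, between 7272514 and 7581885 on GRCm38. Of these, 7 had a row: in order along the chromosome, Mmp13, Mmp12, Mmp3, Mmp1a, Mmp10, Mmp8 and Mmp27. Mmp3 and Mmp27 were higher in PreASKO, Mmp10 did not differ beyond counting error, and Mmp13 was higher but passed the minimum only through PreASKO. The other 3, Mmp12, Mmp1a and Mmp8, were below the minimum, each with 0 counts in PreASKO and 4 to 11 counts in floxed. Of these, only Mmp12 was lower beyond counting error, with an upper limit of its ratio of 0.655. In PreASKO, detected genes and genes with no count thus alternated along the cluster. In floxed, Mmp13 was about as scarce as its neighbour Mmp12, at 15 and 11 counts. Summed over its 4 measured genes, the cluster stood at 189 CPM in PreASKO and 97.1 CPM in floxed, a ratio of 1.94 (1.88 to 2.01), most of it from Mmp3.

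**Figure D3:**
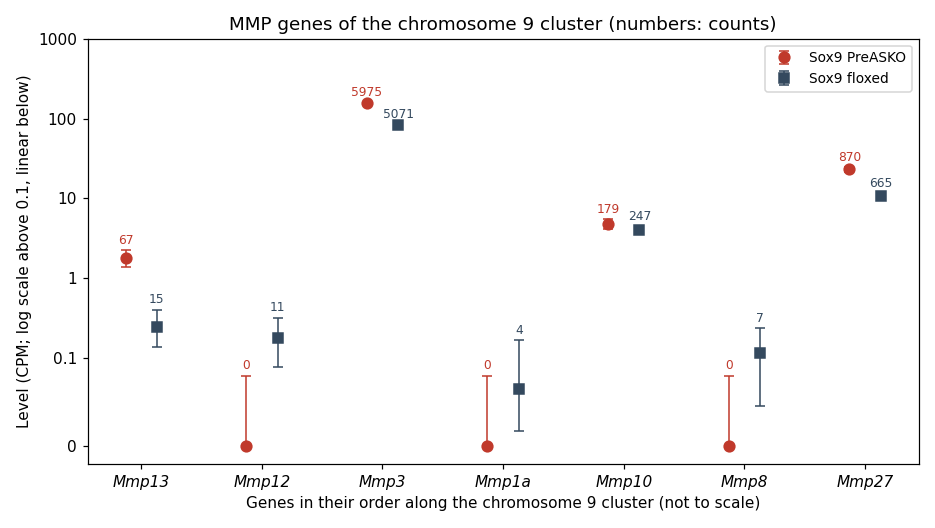
Level in CPM of the 7 MMP genes of the chromosome 9 cluster with a row, in chromosomal order and not to scale, in the Sox9 PreASKO library (red circles, left) and the Sox9 floxed library (blue-grey squares, right), with the count printed above each point. Bars are exact Poisson intervals where the count is above 0, and run to a floor of 3 counts where it is 0; Mmp13, Mmp3 and Mmp27 stand higher in PreASKO, the intervals of Mmp10 overlap, and the other 3 genes have 0 counts in PreASKO.

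The promoters of the 4 measured genes of this cluster are shown, and they were chosen after the word search described here, with its matches known. Mmp13, Mmp3 and Mmp27 had some of the largest ratios among the members, while Mmp10 did not differ beyond counting error. MMP promoters are textbook targets of AP-1, the Fos and Jun transcription factors. Each line gives the 250 bases before the annotated start, 5′ to 3′, from RefSeq. Capitals mark the AP-1 word TGANTCA, which reads the same on both strands, and the TATA word TATAAA, searched on the strand of the gene. The TATA word was added after the AP-1 matches were seen.
Mmp13 promoter (chr9:7272264-7272513, GRCm38.p6, + strand): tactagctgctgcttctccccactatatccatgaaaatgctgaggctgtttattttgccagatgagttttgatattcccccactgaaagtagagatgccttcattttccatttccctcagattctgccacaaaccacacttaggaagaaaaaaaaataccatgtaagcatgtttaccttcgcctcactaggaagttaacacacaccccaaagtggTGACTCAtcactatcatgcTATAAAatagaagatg
Mmp3 promoter (chr9:7445572-7445821, GRCm38.p6, + strand): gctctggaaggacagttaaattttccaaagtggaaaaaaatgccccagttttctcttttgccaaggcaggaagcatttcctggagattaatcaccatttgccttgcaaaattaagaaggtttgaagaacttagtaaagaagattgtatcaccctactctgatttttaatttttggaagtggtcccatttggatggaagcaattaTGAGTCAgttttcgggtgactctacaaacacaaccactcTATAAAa
Mmp10 promoter (chr9:7502092-7502341, GRCm38.p6, + strand): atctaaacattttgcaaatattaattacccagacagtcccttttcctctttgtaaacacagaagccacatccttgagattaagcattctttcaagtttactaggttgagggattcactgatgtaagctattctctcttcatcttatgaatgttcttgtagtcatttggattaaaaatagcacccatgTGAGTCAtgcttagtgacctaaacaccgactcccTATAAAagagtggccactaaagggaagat
Mmp27 promoter (chr9:7571146-7571395, GRCm38.p6, + strand): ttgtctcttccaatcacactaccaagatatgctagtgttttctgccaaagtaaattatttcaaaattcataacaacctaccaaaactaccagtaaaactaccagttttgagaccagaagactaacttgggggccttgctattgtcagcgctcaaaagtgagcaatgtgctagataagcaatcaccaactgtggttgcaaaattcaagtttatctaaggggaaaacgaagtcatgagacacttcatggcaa

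Mmp13, Mmp3 and Mmp10 each hold 1 AP-1 word, which begins 35, 46 and 63 bases before the start, and 1 TATA word after it, which begins 16, 7 and 29 bases before the start. Mmp27 holds neither word in these bases. RefSeq windows, which run from 250 bases before to 50 after a start, were matched for 43 of the 68 members, with 47 windows in all. The AP-1 word was found in 7 of the 47 (14.9%), against 7.81% of all 32851 windows, and the TATA word in 8 (17.0%), against 8.32% of all windows. Of the 15 MMP genes with a window, 5 had the AP-1 word, and all 5 lie in the chromosome 9 cluster: Mmp13, Mmp3, Mmp10, Mmp12 and Mmp1a. Mmp12 and Mmp1a hold the words of their neighbours but had 0 counts in PreASKO and 11 and 4 in floxed. The other 2 matches were in Adam19, lower in PreASKO, and Adam1b, nearly undetected. A match describes the letters only.

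Of the 3 TIMPs analysed, which do not include Timp2, the abundant one was nearly equal in both libraries. Timp3, which is held in the matrix, had 29075 counts in PreASKO and 48854 in floxed, or 773 CPM against 791 CPM, a ratio of 0.978 (0.964 to 0.992). Timp1 (ID 21857; chromosome X, 20870166 to 20874737), a secreted inhibitor induced in inflammation, stood at 42.1 CPM in PreASKO and 34.8 CPM in floxed, a ratio of 1.21 (1.13 to 1.29). Timp4 had 19 counts in PreASKO and 4 in floxed, below the minimum, a ratio of 7.80 with a wide interval (2.59 to 31.5). The ratios of Mmp3 and Mmp9 were larger than those of Timp1 and Timp3 beyond counting error. Mmp2 and Mmp14 had smaller ratios than Timp3 by summed counts. They did so by raw counts too, with a log2 ratio of -0.067 for Timp3, -1.08 for Mmp2 and -0.394 for Mmp14. By repeat-distributed counts the order turned, with a log2 ratio of -0.41 for Timp3, -0.22 for Mmp2 and -0.25 for Mmp14. Raw counts held 81.1% of the Timp3 counts in PreASKO and 74.5% in floxed, but only 0.114% and 0.180% of those of Mmp2.

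Of the ADAMs known as active proteases of somatic cells, 7 of 8 measured lay within 1.5-fold, near the 83.9% of all genes measured that did, and Adam19 lay past it. Adam19 (meltrin beta, ID 11492; chromosome 11, 46054502 to 46147347) had 9864 counts in PreASKO and 27005 in floxed, or 262 CPM against 437 CPM, a ratio of 0.600 (0.586 to 0.614). Its relative Adam12 (meltrin alpha), used in other work as a marker of perivascular and activated stromal cells, stood at 349 CPM in PreASKO and 407 CPM in floxed (ratio 0.857, 0.839 to 0.875). Annotated antisense genes share 587 and 480 exon bases with Adam19, and reads of the pair cannot be told apart where strand is not used.

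The main sheddases differed little. Adam17 releases tumour necrosis factor, EGF-receptor ligands and Pref-1. It stood at 177 CPM in PreASKO and 169 CPM in floxed, a ratio of 1.05 (1.02 to 1.08). It shares 311 exon bases with a gene on the opposite strand, so part of its counts is uncertain. Adam10, which cuts Notch receptors before their signal is released, stood at 79.5 CPM in PreASKO and 67.9 CPM in floxed, a ratio of 1.17 (1.12 to 1.23). The transcript of the Adam17 substrate Pref-1, Dlk1, stood at 16.2 CPM in PreASKO against 105 CPM in floxed, and Notch1 at 22.9 CPM in PreASKO against 40.3 CPM in floxed. Adam15, the most abundant ADAM per kilobase in PreASKO, stood at 193 CPM in PreASKO and 199 CPM in floxed, and it shares 736 exon bases with an antisense gene. Adam9, Adam15, Adam33 and Adam8 had ratios from 0.968 to 1.08. Adam8, a protease of leukocytes, stood at 3.35 CPM in PreASKO and 3.43 CPM in floxed, a ratio of 0.976 (0.777 to 1.22). Macrophage markers had a median log2 ratio of 1.01, and how this bears on Adam8 was not tested.

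The 3 somatic ADAMs that lack protease activity lay apart. Adam11 stood at 3.80 CPM in PreASKO and 1.88 CPM in floxed (ratio 2.03, 1.57 to 2.61) and Adam23 at 141 CPM in PreASKO and 107 CPM in floxed (ratio 1.33, 1.28 to 1.38). Adam22, known with Adam23 as a receptor of LGI proteins in the nervous system, stood at 27.8 CPM in PreASKO and 42.8 CPM in floxed (ratio 0.649, 0.603 to 0.697). Of the 10 other ADAMs, mostly genes of testis and epididymis, Adam5 alone was measured, at 1.33 CPM in PreASKO and 1.23 CPM in floxed, and the other 9 had 0 to 37 counts in either library. Adam1a and Adam1b are near-identical relatives, and Adam1a shares exons with a neighbouring gene, so their counts are uncertain.

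The ADAMTS proteoglycanases, which cut versican and aggrecan, include abundant members. All 5 measured lay within 1.5-fold, as did 83.9% of all genes measured, from a ratio of 0.844 for Adamts9 to 1.18 for Adamts4. Adamts9 shares 424 and 166 exon bases with genes on the opposite strand, so part of its counts is uncertain. Adamts1 had 29365 counts in PreASKO and 48836 in floxed, or 781 CPM against 791 CPM. Adamts5 had 16442 counts in PreASKO and 27453 in floxed, or 437 CPM against 444 CPM. Adamts15 stood at 106 CPM in PreASKO and 107 CPM in floxed. Versican itself (Vcan) stood at 818 CPM in PreASKO and 1030 CPM in floxed. The 2 members below the minimum, Adamts8 and Adamts20, had 9 and 17 counts in PreASKO and 63 and 47 in floxed.

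The procollagen N-propeptidases, which trim new fibrillar collagens, held the lowest ratio of all measured members. Adamts3 (ID 330119; chromosome 5, 89673841 to 89883668) had 90 counts in PreASKO and 466 in floxed, or 2.39 CPM against 7.55 CPM, a ratio of 0.317 (0.250 to 0.398). Adamts3 is also known to activate the lymphatic growth factor VEGF-C. Its abundant relative Adamts2 had 31454 counts in PreASKO and 50989 in floxed, or 837 and 826 CPM, a ratio of 1.01 (0.999 to 1.03). Adamts14 was higher, at 106 CPM in PreASKO and 80.2 CPM in floxed (ratio 1.32, 1.27 to 1.38). Summed, the 3 genes stood at 945 CPM in PreASKO and 913 CPM in floxed, so the low Adamts3 made little difference to the level of the group.

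Of the other ADAMTS genes, Adamts18 and Adamts6 were higher at low levels. Adamts18 (ID 208936; chromosome 8, 113697123 to 113849343) had 89 counts in PreASKO and 39 in floxed, or 2.37 CPM against 0.631 CPM, a ratio of 3.75 (2.55 to 5.61). Adamts6, which acts on fibrillin microfibrils, had 182 counts in PreASKO and 143 in floxed, or 4.84 CPM against 2.32 CPM, a ratio of 2.09 (1.67 to 2.62). Adamts12, the third most abundant ADAMTS gene per kilobase, stood at 504 CPM in PreASKO and 459 CPM in floxed (ratio 1.10, 1.08 to 1.12). The remaining 5 measured genes of this group had ratios from 0.755 for Adamts16 to 1.46 for Adamts17. Adamts13, the protease of von Willebrand factor, had 3 counts in PreASKO and 0 in floxed.

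The ADAMTS-like proteins resemble ADAMTS enzymes but lack the protease domain, and several bind fibrillin. Adamtsl3 (ID 269959; chromosome 7, 82335399 to 82614450) had 1207 counts in PreASKO and 3413 in floxed, or 32.1 CPM against 55.3 CPM, a ratio of 0.581 (0.544 to 0.621). Adamtsl1 was equal, at 233 CPM in both libraries. Adamtsl4 stood at 171 CPM in PreASKO and 205 CPM in floxed (ratio 0.835), Adamtsl5 at 88.9 CPM in PreASKO and 70.6 CPM in floxed (ratio 1.26), and Adamtsl2 at 2.13 CPM in PreASKO and 1.20 CPM in floxed (ratio 1.78, 1.28 to 2.47). Fbn1, the gene of the main fibrillin, stood at 7393 CPM in PreASKO and 7674 CPM in floxed.

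The values rest on 2 kinds of count that the deposited table gives separately, a raw count and a repeat-distributed count, which were added, and for some members these gave different directions. Of 22 measured members with at least 100 counts of each kind, 8 had ratios on opposite sides of 1. For Adamts1 the log2 ratio of CPM was 0.17 by raw counts and -0.40 by repeat-distributed counts, and for Adamts4 it was 0.45 by raw counts and -0.21 by the other kind. For Adamts15 the raw counts, only 24 in PreASKO and 89 in floxed, gave -1.33 and the repeat-distributed counts 0.038. The directions of Adam10, Adam33, Adamts2, Adamts5 and Adamts12 differed too. Raw counts held 38.6% to 64.1% of the counts of Adamts1, Adamts4 and Adamts12, so their ratios depend on how the 2 are added. They held at most 3.50% for Adam10, Adam33, Adamts2, Adamts5 and Adamts15. The summed ratios of these lay close to those by repeat-distributed counts, as with Adamts15 at 0.987 summed and 1.03 by repeat-distributed counts. Among members past 1.5-fold, Mmp3 (1.43 and 0.74), Mmp28 (-1.34 and -1.15), Mmp11 (-0.91 and -0.53) and Mmp16 (-0.96 and -0.57) had the same direction by raw and by repeat-distributed counts. For 25 of the 49 measured members, Mmp2, Mmp9, Adam19, Adamts3 and Adamtsl3 among them, the raw count held under 1% of the counts, so they rest on the repeat-distributed count.

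**Figure D4:**
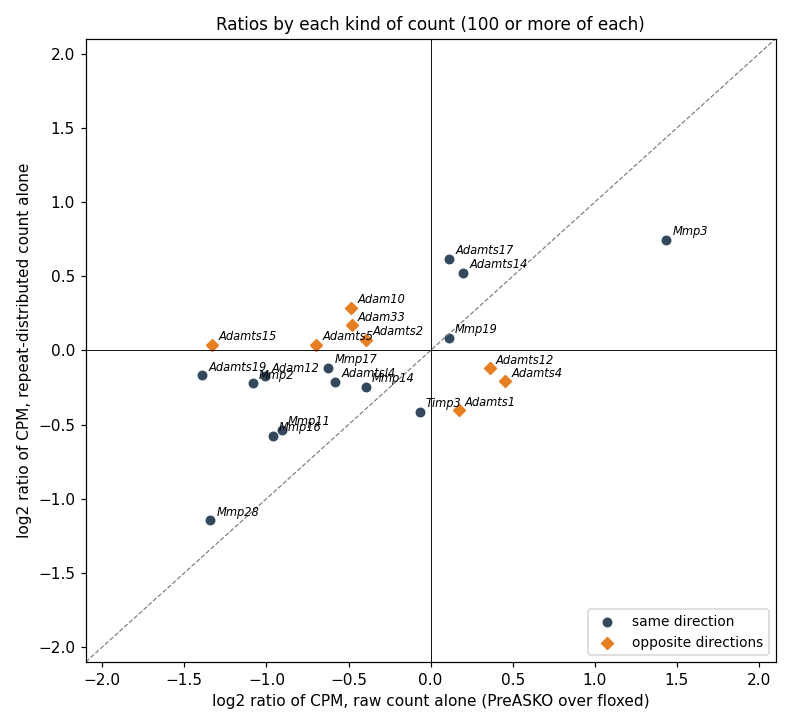
Log2 ratio of CPM, PreASKO over floxed, by repeat-distributed counts (vertical) against raw counts (horizontal), for the 22 measured members with at least 100 counts of each kind; the dashed line marks equal values. Orange diamonds are the 8 members whose directions differ, and Mmp3 (upper right) and Mmp28 (lower left) lie far from 0 by both kinds of count.

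Genes that work with these enzymes are set beside all genes measured, of which 83.9% lay within 1.5-fold and 54.5% were lower in PreASKO. None of the 7 measured genes of plasminogen activation, a route by which pro-MMPs are activated, passed 1.5-fold, and the median log2 ratio was -0.11. The activators Plau, at 174 CPM in PreASKO and 188 CPM in floxed, and Plat, at 321 CPM in PreASKO and 347 CPM in floxed, were slightly lower, while Serpine2, an inhibitor of serine proteases, was higher, at 52.1 CPM in PreASKO and 37.2 CPM in floxed. None of the 10 measured regulators of metalloproteinases passed 1.5-fold either. Among them the membrane-anchored MMP inhibitor Reck stood at 437 CPM in PreASKO and 520 CPM in floxed, and Lrp1, the receptor that clears proteases from the matrix, at 1088 CPM in PreASKO and 1367 CPM in floxed. Bsg, an inducer of MMPs also called EMMPRIN, stood at 759.5 CPM in PreASKO and 608 CPM in floxed.

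Of 7 measured partners that control Adam17 and Adam10, 5 were higher and 2 lower, none past 1.5-fold, with a median log2 ratio of 0.23 against -0.041 over all genes. The Adam17 maturation factor Rhbdf2 (iRhom2), which leukocytes also make, stood at 8.96 CPM in PreASKO and 6.06 CPM in floxed, whereas its relative Rhbdf1 (iRhom1) stood at 70.1 CPM in PreASKO and 71.5 CPM in floxed. Of the tetraspanins that guide Adam10, Tspan17 stood at 18.2 CPM in PreASKO and 12.5 CPM in floxed and Tspan5 at 64.6 CPM in PreASKO and 88.8 CPM in floxed. The 5 proprotein convertases lay within 1.5-fold, with Furin at 46.9 CPM in PreASKO and 60.9 CPM in floxed and Pcsk5 at 134 CPM in PreASKO and 105 CPM in floxed. Of 16 measured genes for proteins shed by Adam10 or Adam17, 6 were higher and 10 lower. Past 1.5-fold, 3 were higher and 2 lower, against 7.89% and 8.18% of all genes. The higher ones were Tnf (27.6 CPM in PreASKO, 15.9 CPM in floxed), Ereg (2.61 and 0.502 CPM) and Cx3cl1 (2.29 and 0.405 CPM). Ereg and Cx3cl1 passed the minimum only through PreASKO. The lower ones were Dlk1 and Notch1. Ereg and Cx3cl1 were past 2-fold higher and Dlk1 past 2-fold lower, where 2.11% and 1.52% of all genes were.

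Of 12 measured cathepsins and serine proteases, 9 were higher in PreASKO, with a median log2 ratio of 0.23, and 2 passed 1.5-fold. Those 2 were the lysosomal proteases Ctss (cathepsin S), at 100.2 CPM in PreASKO and 59.2 CPM in floxed, and Lgmn (legumain), at 146 CPM in PreASKO and 88.03 CPM in floxed, both abundant in macrophages. Ctsk, the collagen-degrading cathepsin of fibroblasts and osteoclasts, was equal within counting error, at 233 CPM in PreASKO and 237 CPM in floxed. Macrophage markers summed to 2567 CPM in PreASKO and 1324 CPM in floxed, and their part in these values was not tested. Among 9 measured astacins, pappalysins and other metalloproteinases, 5 were higher and 4 lower, and Pappa2, which cleaves IGF-binding proteins, was the only one past 1.5-fold, at 2.29 CPM in PreASKO and 5.36 CPM in floxed. Of 8 measured ADAMTS substrates and related proteins, 3 were higher and 5 lower, none past 1.5-fold. Fbn2 stood at 148 CPM in PreASKO and 203 CPM in floxed and Papln (papilin) at 12.1 CPM in PreASKO and 8.44 CPM in floxed.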

How the data were processed

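For each gene and library the authors deposited a whole-number raw count and a repeat-distributed count. Some repeat-distributed values are fractional, so this deposited column was handled as an estimated count. How reads were divided between them is not stated. The authors' deposited table also holds a fold change, a ratio of unstated normalization. The submitters' processing notes name mm10; the sources used here do not give the aligner, counting program or use of strand. Rows sharing a gene ID were summed (21 IDs), leaving 23647 genes. Both counts were added, because that sum follows the deposited fold: in 11991 rows where both libraries reached 100 counts, the deposited fold over the ratio of sums had a median of 1.68, and 97.9% of rows came within 5% of that. CPM were taken over library totals of 37597048 counts for PreASKO and 61761645 for floxed, so that 1 CPM is 37.6 and 61.8 counts. Log2 ratios use a pseudocount of 1 CPM. Intervals are exact 95% Poisson (levels) and Clopper-Pearson (ratios), after rounding, and cover counting error only.

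Named in full were every TIMP, members past 1.5-fold, the 3 highest members of a family per kilobase, the measured gelatinases, collagenases, stromelysins and membrane-type MMPs, and up to 4 genes of a related list; any other gene was named with its values in view. The members, lists and settings were chosen with earlier results of these data known. Exon lengths came from GENCODE M21 (67 of 68 members), and coordinates and promoters from RefSeq on GRCm38.p6. The protein motifs planned were not analysed here. The ratios and intervals were tested on simulated data with known folds. These data held counting error only, so spread between mice or pools was not tested. Tools were Python 3.11.15, SciPy 1.17.1 and edgeR 4.0.16 (TMM scaling only).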

Additional observations from a re-analysis of the deposited data

How the results depend on the processing

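With 1 library per genotype no replicate could be left out, and no paired analysis was possible because each genotype has a single library. The report counts 4 members as higher and 2 as lower by 2-fold or more. Adding 5 CPM in place of 1 gave 0 and 0, where 0.42% and 0.20% of all genes were. A 3-fold cutoff gave 0 and 0 (0.22% and 0.16% of all genes) and a 1.5-fold cutoff 7 and 7 (7.89% and 8.18%). A minimum mean of 5 CPM gave 2 and 1 (1.39% and 0.84%). These follow from how each setting treats low genes or the size required. The raw count alone gave 2 higher among 32 members, where 5.13% of all genes were. Their median log2 ratio was -0.27 in place of 0.0035, and the median over all genes was -0.125 in place of -0.041. The cause was not tested. The folds in the authors' deposited table, used as they stand, gave 7 higher, where 4.37% of all genes were. Both numbers lay within 1.5 times with a pseudocount of 0.1 CPM, median-of-ratios or TMM scaling, no minimum mean, or repeat-distributed counts by themselves, which put Adamts6 in the place of Mmp13. The number lower did so with raw counts and the deposited folds too. All 14 members past 1.5-fold kept their direction under both pseudocounts, both scalings and the deposited folds, and the 13 that stayed measured did so with the repeat-distributed count alone. Adamts6 alone turned, to a log2 ratio of -0.79 with the raw count alone, which holds 2 of its counts in PreASKO and 15 in floxed, too few to pass the minimum. Either scaling moved 5 of the 49 members across equality, all of them near a ratio of 1. Depth limits members under 1 CPM, where 37.6 counts in PreASKO and 61.8 in floxed make 1 CPM.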
